A study of Mus musculus with 15 samples.

Results

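Xkr4, Ago3, Kctd16, Zbed6 and Ptar1 are 5 protein-coding genes of the 16816 tested in mouse medial prefrontal cortex (mPFC), out of 27179 gene identifiers in the table. They were picked because their level was lower after fear extinction than before it, both with and without ABX. Their change with extinction is therefore the ground on which they were chosen, and it is described here without a test. What that choice did not use, namely their response to ABX, their transcripts, their relatives and the way they vary between libraries of 1 group, is compared and tested where the design allows.

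Bulk RNA was sequenced from dissected mPFC of C57BL/6J mice in 15 libraries. The protocol for RNA extraction mentions sorted cells as well, which the source of the samples does not. ABX, by its usual meaning a mixture of antibiotics, was given to some mice, and mice were taken before or after fear extinction, the learned loss of a conditioned fear response. The groups were pre-extinction without ABX (n = 3, replicates 1, 3 and 4), post-extinction without ABX (n = 4), pre-extinction with ABX (n = 4) and post-extinction with ABX (n = 4). The labels give no age, dose or duration, and do not say whether each library is 1 animal, so p-values measure only the spread between these libraries, which may be technical. Neuronal markers were abundant in all libraries: the 6 excitatory neuron genes summed to between 6188 and 8025 CPM in every library. CPM are counts scaled to the library total, which was TMM-adjusted for single genes and not for such marker sums. Total counts per library ran from 44254906 to 57929503. In bulk RNA, fewer cells that express a gene and less of its RNA per cell cannot be told apart.

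The 5 proteins belong to different processes. Ago3 is an Argonaute protein, which binds a small RNA such as a microRNA and is guided by it to matching messenger RNAs. Kctd16 is an auxiliary subunit of the GABAB receptor, the metabotropic receptor for the inhibitory transmitter GABA, and shapes the strength and time course of its signal through G proteins. Xkr4 is a member of the XK-related family of membrane proteins and, once cleaved by caspases, promotes the exposure of phosphatidylserine on the cell surface. Zbed6 is a DNA-binding repressor derived from a domesticated transposon, encoded inside an intron of Zc3h11a and best known for its repression of Igf2. Ptar1 is the alpha subunit of a protein prenyltransferase that works with Rabggtb and attaches a lipid to the SNARE protein Ykt6.

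In RefSeq coordinates of mouse build GRCm38 (mm10), Xkr4 (Entrez 497097) lies on chromosome 1 from 3199733 to 3671948 on the minus strand. Ago3 (Entrez 214150) lies on chromosome 4 from 126326994 to 126431670, also on the minus strand. Zbed6 (Entrez 667118) is a gene of 1 exon on chromosome 1 from 133655879 to 133660885 on the minus strand. Ptar1 (Entrez 72351) lies on chromosome 19 from 23687361 to 23732885 on the plus strand. The span of Kctd16 is given with its values. Only Xkr4 and Zbed6 share a chromosome, and they lie far apart on it.

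The sequence just ahead of a gene's start was looked at because the 5 genes were lower together after extinction. RefSeq windows of GRCm38.p6 were available for 3 of them, Ago3, Zbed6 and Ptar1, and the 250 bases before the start used there are shown for Ago3 and Ptar1. The window of Zbed6 is not shown, since it lies within an exon of Gm38394, a read-through model that spans Zbed6, and so is not only sequence ahead of a gene. They lie at chr4:126429543-126429792 on the minus strand and at chr19:23687150-23687399 on the plus strand, and are written 5′ to 3′ along the gene. Capitals mark GC boxes, the letters gggcgg on either strand.
Ago3: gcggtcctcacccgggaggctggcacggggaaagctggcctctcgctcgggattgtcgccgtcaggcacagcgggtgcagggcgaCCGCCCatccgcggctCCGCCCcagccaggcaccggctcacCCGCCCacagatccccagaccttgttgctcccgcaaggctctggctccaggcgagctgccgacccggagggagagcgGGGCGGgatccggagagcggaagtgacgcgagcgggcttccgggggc
Ptar1: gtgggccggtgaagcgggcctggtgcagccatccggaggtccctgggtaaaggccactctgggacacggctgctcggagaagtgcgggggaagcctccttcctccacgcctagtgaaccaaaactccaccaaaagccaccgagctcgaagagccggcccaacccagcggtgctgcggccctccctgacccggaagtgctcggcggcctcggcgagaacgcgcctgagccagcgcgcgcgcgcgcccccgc

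Both windows were rich in G and C: 73.6% in Ago3 and 70.4% in Ptar1, with 69.6% in the exonic window of Zbed6 and a median of 52.4% over 32851 RefSeq windows of the same length. Ago3 had 4 GC boxes, Zbed6 had 1 and Ptar1 had 0, and 32.7% of all windows held at least 1. A search of both strands for the cAMP response element (tgacgtca), the AP-1 site (tgantca), the E-box (cacgtg) and the TATA box (tataaa) found 0 matches in the 3 windows. These motifs were present in 1.55%, 6.75%, 6.02% and 12.4% of all windows. None of these motifs contains another, and a match or its absence describes only the letters of this window. The windows of Ago3 and Ptar1 each end at 1 of the starts of the gene. The annotated spans given above begin further upstream, so the end of the Ptar1 window and the whole Ago3 window lie inside them.

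Levels were compared between the 5 genes as CPM per kilobase of merged exons (GENCODE M21), since a longer transcript yields more reads. Zbed6 was the most abundant, with a lowest, median and highest value of 4.89, 7.34 and 10.1 CPM per kilobase over the 15 libraries. Kctd16 followed with 2.61, 3.24 and 4.44, and Xkr4 with 1.20, 1.98 and 2.94. Ago3 had 0.434, 0.709 and 0.971, and Ptar1 was the lowest with 0.214, 0.350 and 0.497. This order held in 15 of 15 libraries, although the ranges of Kctd16 and Xkr4 overlapped, as did those of Ago3 and Ptar1. Before the division Zbed6 was still the highest and Ptar1 the lowest. Xkr4, Kctd16 and Ago3 then overlapped, at 7.32 to 17.9, 9.06 to 15.5 and 7.19 to 16.1 CPM. Their order therefore rests largely on their merged exon lengths of 6094, 3477 and 16571 bases, which are the same for every library. The annotation used for counting is not stated, so these lengths may differ from the bases counted. All values that follow are in CPM without the division by length unless stated.

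Ago3 had 12.2, 13.2 and 16.1 CPM in the pre-extinction libraries without ABX and 7.19, 9.40, 7.73 and 10.2 CPM in the post-extinction libraries without ABX. With ABX it had 13.9, 15.4, 15.3 and 13.2 CPM before extinction and 9.45, 11.8, 10.4 and 9.52 CPM after it. Every post-extinction library lay below every pre-extinction library, in both arms and across them. The log2 fold change, post over pre, was -0.68 (SE 0.13) without ABX and -0.49 (SE 0.12) with ABX, a change of -37.4% and -28.9%. Of the 5 genes, Ago3 had the most negative value without ABX.

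Kctd16 (Entrez 383348) lies on chromosome 18 from 40256305 to 40547258 on the plus strand. It was the least variable of the set, with a coefficient of variation of 8.77% between libraries of 1 group after counting error was removed. It had 14.2, 14.0 and 15.2 CPM before extinction and 10.2, 10.7, 9.35 and 10.9 CPM after it without ABX. With ABX it had 13.1, 14.9, 15.5 and 12.5 CPM before and 9.66, 11.3, 10.3 and 9.06 CPM after extinction. Again no post-extinction library reached a pre-extinction one. Its log2 fold change was -0.49 (SE 0.09) without ABX and -0.48 (SE 0.09) with ABX. Kctd16 shares 360 exonic bases with an antisense model, AC098707.1, and reads from the opposite strand could not be separated because the library kit does not keep strand.

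Xkr4 was the most variable of the set, with a coefficient of variation of 16.2%. Its values without ABX were 12.6, 14.1 and 16.4 CPM before and 8.09, 9.001, 8.95 and 12.1 CPM after extinction. With ABX they were 13.8, 17.9, 16.4 and 11.5 CPM before and 7.32, 10.5, 9.49 and 12.2 CPM after it. The arm with ABX therefore overlapped: post-extinction replicate 4 lay above pre-extinction replicate 4. The log2 fold change was -0.59 (SE 0.18) without ABX and -0.59 (SE 0.16) with ABX. The other annotated models within Xkr4 share no exonic base with it.

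Zbed6 had 41.2, 42.7 and 50.1 CPM before extinction and 24.5, 29.8, 28.6 and 36.7 CPM after it without ABX. With ABX it had 48.7, 46.7, 50.7 and 43.7 CPM before and 28.0, 33.7, 34.7 and 33.3 CPM after. The pre- and post-extinction libraries did not overlap. Its log2 fold change was -0.58 (SE 0.12) without ABX and -0.55 (SE 0.11) with ABX, a change of -33.0% and -31.6%.

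Ptar1 was measured from the fewest reads, 129 to 312 per library. It had 4.78, 5.22 and 5.92 CPM before extinction and 2.85, 4.12, 3.52 and 4.48 CPM after it without ABX. With ABX it had 5.07, 5.66, 6.36 and 5.36 CPM before and 2.75, 3.03, 3.47 and 3.79 CPM after. No post-extinction library overlapped a pre-extinction one here either. The log2 fold change was -0.50 (SE 0.15) without ABX and -0.78 (SE 0.14) with ABX, the most negative value of the set in that arm, a change of -41.9%.

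**Figure D1:**
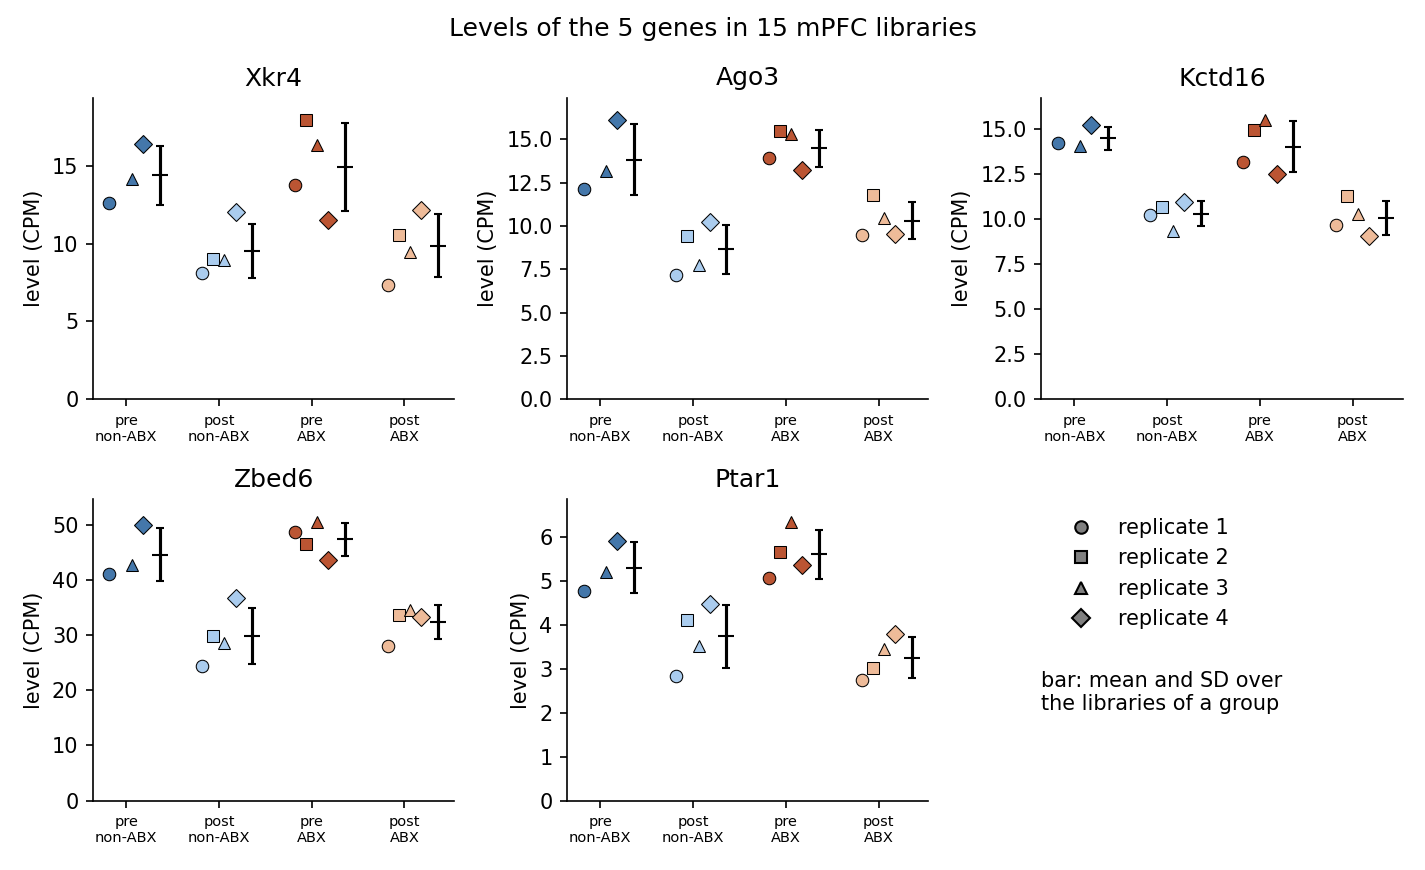
Levels of Xkr4, Ago3, Kctd16, Zbed6 and Ptar1 in CPM (y axis, from 0) in the 15 libraries, by group (x axis). Each symbol is 1 library, its shape gives the replicate number, and the bar gives the mean and SD of the group. Post-extinction libraries lie below pre-extinction libraries for every gene, apart from Xkr4, where the highest post-extinction value (12.2 CPM) exceeds the lowest pre-extinction value (11.5 CPM).

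The plot of levels by group shows that the 4 group means formed 2 tiers for each gene. Xkr4 had means of 14.4 ± 1.91 CPM (SD, n = 3) and 14.9 ± 2.82 CPM (SD, n = 4) before extinction, without and with ABX, against 9.52 ± 1.74 and 9.88 ± 2.03 CPM (SD, n = 4 each) after it. For Zbed6 the pre-extinction means were 44.7 ± 4.75 and 47.4 ± 2.98 CPM and the post-extinction means 29.9 ± 5.09 and 32.4 ± 3.02 CPM. Within a tier, the groups with and without ABX overlapped for all 5 genes.

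All 5 genes were lower in every post-extinction library than in every pre-extinction library of their arm without ABX, where 3.57% of tested genes showed that separation. The count was 4 of 5 with ABX, against 2.78% of tested genes, and 4 of 5 were separated in both arms, against 0.541%. All 8 post-extinction libraries lay below all 7 pre-extinction libraries for 4 of 5 genes, against 0.22% of tested genes, or 37 genes. These counts follow from the choice of the genes and are given as a description. The median log2 fold change of the 5 genes was -0.58 without ABX and -0.55 with ABX, beside medians over all tested genes of -0.00 and 0.01.

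The 5 genes were not the lowest of the table. Ranked from the most negative fold change of 16816 genes, they stood between rank 92 (Ago3) and rank 250 (Kctd16) without ABX, and between rank 48 (Ptar1) and rank 329 (Kctd16) with ABX. The number of tested genes whose fold change was at least as negative in both arms was 22 for Xkr4, 36 for Zbed6, 58 for Ptar1, 65 for Ago3 and 72 for Kctd16, the gene itself included. The difference between the arms, with ABX minus without, was 0.00 (SE 0.24) for Xkr4, 0.01 (SE 0.13) for Kctd16, 0.03 (SE 0.16) for Zbed6, 0.18 (SE 0.18) for Ago3 and -0.28 (SE 0.21) for Ptar1 on the log2 scale. For Ptar1 its 95% interval ran from -0.72 to 0.15. Since the genes were picked on both arms, that difference is also a description.

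The relatives and partners of the 5 genes were not used in choosing them, so their change with extinction was tested. The lists were, however, chosen with earlier results of these data known, so they are not independent of the data. With the edgeR quasi-likelihood test, 0 of the 88 tested genes on 6 lists passed an adjusted p of 0.05 in either arm. The lists covered RNA silencing, phospholipid scrambling, the GABAB receptor complex, the ZBED family with the host and target of Zbed6, prenylation, and nuclear long noncoding RNAs. Over all genes the same test called 0.0% without ABX and 0.0951% with ABX. At an unadjusted p under 0.05 there were 4 and 16 of the 88, while 4.94% and 16.6% of all genes were below that value, so the share on the lists was close to that of the table. DESeq2 called 0 and 2 of the 88, against 0.113% and 1.78% of all genes.

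The other 3 Argonautes had values near 0, unlike Ago3. Before extinction without ABX, Ago1 had 15.4, Ago2 6.22 and Ago4 2.60 CPM per kilobase, against 0.83 for Ago3. This made Ago3 the least abundant, as it also was by its mean CPM without the division by length. The fold changes of Ago1, the most abundant, were -0.07 (SE 0.05) without ABX and -0.03 (SE 0.05) with ABX, against -0.68 and -0.49 for Ago3. Those of Ago2, the family's slicing enzyme, were -0.08 (SE 0.13) and 0.02 (SE 0.12), and those of Ago4 were -0.11 (SE 0.09) and -0.08 (SE 0.09). None of the 3 passed the test, with edgeR adjusted p-values of 0.598 or more. Of the 17 other RNA silencing genes, 12 had a negative value without ABX and 10 with ABX, with medians of -0.06 and -0.03. The highest value in each arm was that of Mov10, an RNA helicase, at 0.48 (SE 0.12, edgeR adjusted p = 0.124) with ABX, where DESeq2 called it.

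None of the other GABAB receptor subunits passed the test. The receptor subunits themselves, Gabbr1 and Gabbr2, had fold changes of 0.01 (SE 0.05) and 0.10 (SE 0.12) without ABX, and of -0.03 (SE 0.05) and 0.04 (SE 0.11) with ABX. The other auxiliary subunits Kctd12 and Kctd8 had 0.10 (SE 0.07) and 0.28 (SE 0.13) without ABX, neither past the test. With ABX they had -0.02 (SE 0.07) and -0.06 (SE 0.12). Kctd12b, the remaining KCTD gene of the list, had -0.11 (SE 0.21, edgeR adjusted p = 0.909) without ABX and -0.33 (SE 0.19, edgeR adjusted p = 0.362) with ABX, the most negative value of the list in that arm and the same sign as Kctd16 in both. Before extinction without ABX, Kctd12 was the most abundant of these 4 KCTD genes, with 9.86 CPM per kilobase against 4.16 for Kctd16, 0.96 for Kctd8 and 0.70 for Kctd12b. The 21 other genes of the receptor complex had medians of 0.06 and 0.03, above 0 in both arms.

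Among its family, Xkr7 had values similar in size to those of Xkr4 in both arms. Xkr7, a paralog of the same family, had a fold change of -0.54 (SE 0.23, edgeR adjusted p = 0.896) without ABX and -0.54 (SE 0.22, edgeR adjusted p = 0.259) with ABX. It was measured from only 60 to 169 counts per library, its groups overlapped in both arms, and neither value passed the test. Xkr8, another scramblase cleaved by caspases, had -0.05 (SE 0.12) and 0.07 (SE 0.11). Xkr6 had -0.21 (SE 0.22) and -0.02 (SE 0.20). Xkr5, with only 3 to 16 counts per library, had 0.00 (SE 0.40) and -0.59 (SE 0.39, edgeR adjusted p = 0.407), the most negative value of the list with ABX. Xk, the gene that names the family, had -0.12 (SE 0.11) and -0.20 (SE 0.11). Per kilobase before extinction without ABX, Xk had 5.03 CPM, Xkr4 2.36, Xkr8 0.95, Xkr7 0.90, Xkr6 0.12 and Xkr5 0.047. Of the 15 other genes tested on this list, 10 and 11 had negative values, with medians of -0.05 and -0.13.

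Zbed6 is nested in Zc3h11a on the same strand, so the host gene was set beside it. The 2 genes share 74 exonic bases in GENCODE M21, and all 5007 bases of Zbed6 also lie within an exon of Gm38394, an annotated read-through model. The sources used here do not say how the authors' counting divided reads between these models. Zc3h11a, a zinc finger protein linked to export of messenger RNA, had 117 ± 3.44 CPM (SD, n = 3) before and 114 ± 6.41 CPM (SD, n = 4) after extinction without ABX. With ABX it had 121 ± 3.40 before and 122 ± 6.35 CPM after (SD, n = 4 each). Its fold changes were -0.04 (SE 0.06) and 0.01 (SE 0.06), and neither passed the test, with edgeR adjusted p-values of 0.902 and 0.895.

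Relative to its host, Zbed6 was lower after extinction. The ratio of Zbed6 to Zc3h11a was 0.344, 0.376 and 0.421 before extinction and 0.231, 0.248, 0.251 and 0.311 after it without ABX. With ABX it was 0.392, 0.393, 0.409 and 0.371 before and 0.218, 0.266, 0.288 and 0.291 after. The ratio did not overlap between stages in either arm. Since it contains the values that chose Zbed6, it carries no test.

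**Figure D2:**
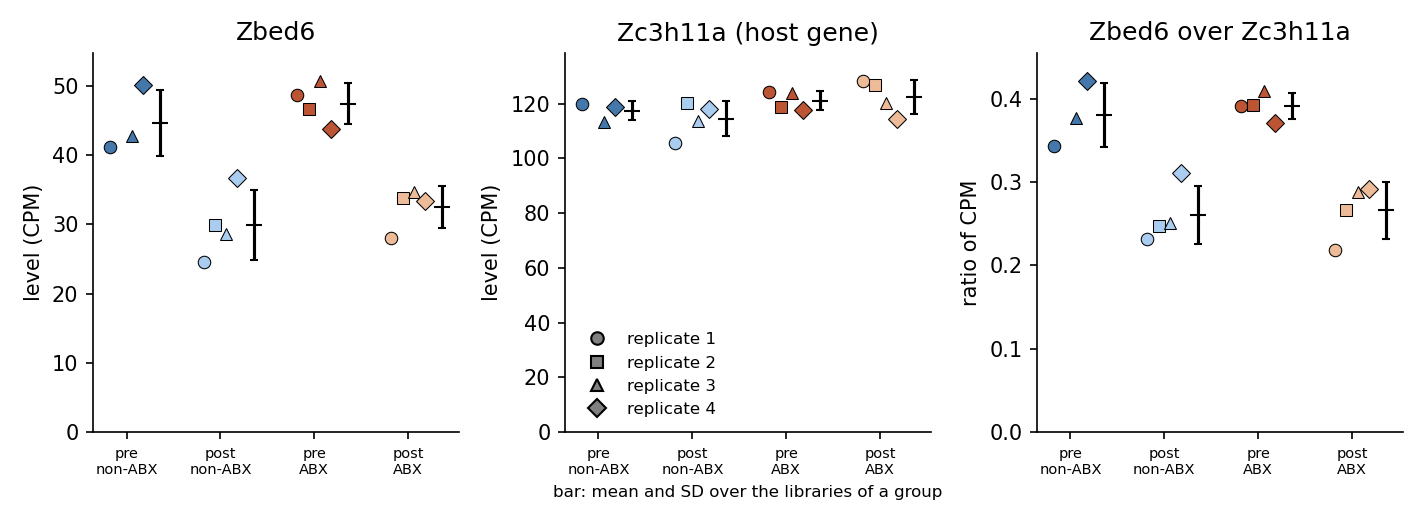
Zbed6 (left) and its host gene Zc3h11a (middle) in CPM, and the ratio of the CPM of Zbed6 to that of Zc3h11a (right), by group (x axes; all y axes from 0). Each symbol is 1 library, its shape the replicate number, and bars give the mean and SD of a group. Zbed6 and the ratio fall into separate ranges before and after extinction, while Zc3h11a stays between 106 and 128 CPM in all 15 libraries.

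In the plot of host and nested gene, post-extinction replicate 1 had the lowest Zbed6 value of its group in both arms. Igf2, which Zbed6 is known to repress, had a fold change of 0.14 (SE 0.18, edgeR adjusted p = 0.896) without ABX and -0.12 (SE 0.17, edgeR adjusted p = 0.689) with ABX. The receptor gene Igf1r had 0.11 (SE 0.08) and 0.36 (SE 0.08, edgeR adjusted p = 0.08), and DESeq2 called the second. The ZBED relatives Zbed3 and Zbed4 had 0.09 (SE 0.09) and -0.05 (SE 0.17) without ABX, and 0.12 (SE 0.09) and -0.05 (SE 0.15) with ABX. Zbed5 had -0.12 (SE 0.12, edgeR adjusted p = 0.896) without ABX and -0.27 (SE 0.11, edgeR adjusted p = 0.242) with ABX. Its sign was that of Zbed6 in both arms, and neither value passed the test. Zbed6 was the most abundant of these ZBED genes before extinction without ABX. It had 8.92 CPM per kilobase, against 2.76 for Zbed3, 1.56 for Zbed5 and 0.34 for Zbed4.

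Ptar1 was scarce beside its partners. Before extinction without ABX it had 0.41 CPM per kilobase, against 17.6 for Rabggtb, its catalytic partner, 13.2 for Rabggta, the alpha subunit of the related Rab prenyltransferase, and 40.4 for the substrate Ykt6. Rabggtb had fold changes of -0.06 (SE 0.08) and -0.05 (SE 0.08), and Rabggta of 0.07 (SE 0.10) and 0.09 (SE 0.09). Ykt6 had -0.02 (SE 0.05) and 0.06 (SE 0.05). None of these passed the edgeR test. Among the 15 other prenylation genes the most negative value in both arms was that of Chml, a Rab escort protein, at -0.32 (SE 0.16, edgeR adjusted p = 0.896) and -0.48 (SE 0.15, edgeR adjusted p = 0.168).

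**Figure D3:**
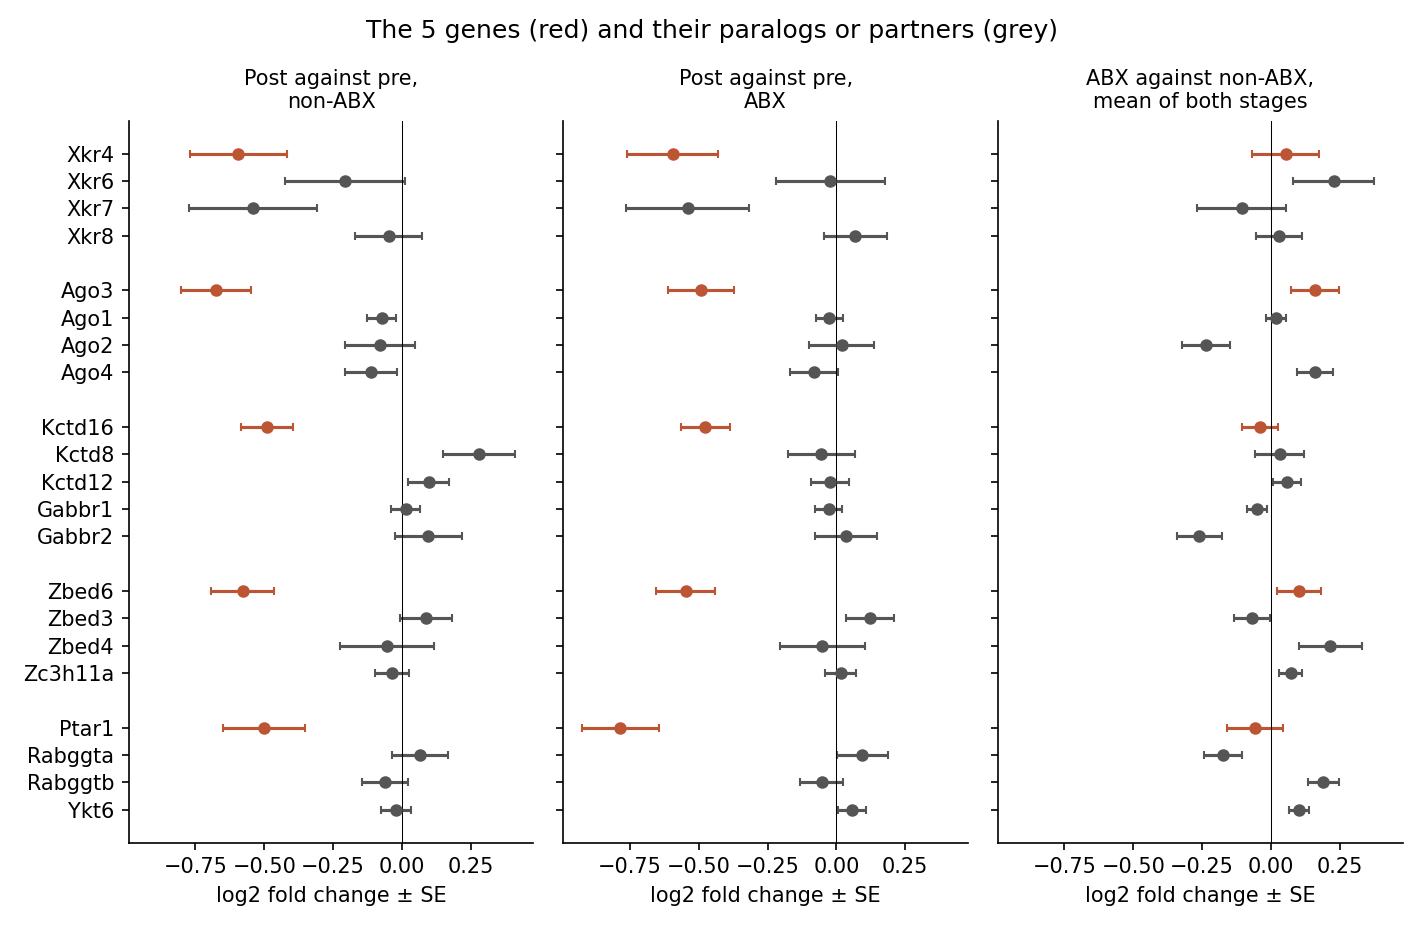
Log2 fold changes with their standard errors (x axes) for the 5 genes in red and for their paralogs or partners in grey (rows), post over pre without ABX (left), post over pre with ABX (middle) and ABX over no ABX averaged over both stages (right). In the first 2 panels the 5 genes lie between -0.78 and -0.48, and of the 16 relatives only Xkr7, at -0.54, lies in that range. In the right panel the 5 genes lie between -0.06 and 0.16.

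The forest plot of relatives shows this contrast in 1 view. A difference between a member and its relative was not tested, since the members were chosen on this comparison. The nuclear-retained long noncoding RNAs had medians of -0.02 and -0.00. Of those 12, 7 had a negative value without ABX and 6 with ABX.

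The comparison of ABX with no ABX was not used to choose the 5 genes and was tested. It asks whether the treatment shifted these genes at either stage or over both. None of the 5 passed the edgeR quasi-likelihood test before extinction, where 0.00595% of all genes passed, after extinction, where 0.0178% passed, or averaged over the stages, where 0.624% passed. None passed at an unadjusted p under 0.05 either, nor with DESeq2. Libraries with and without ABX overlapped for 5 of 5 genes at both stages, while 6.76% of tested genes before and 11.1% after extinction had groups that did not overlap.

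Averaged over the stages, the log2 fold change of ABX over no ABX was 0.16 for Ago3 (SE 0.09, edgeR adjusted p = 0.219), with a 95% interval from -0.03 to 0.35. It was 0.10 for Zbed6 (SE 0.08, edgeR adjusted p = 0.382), with an interval from -0.07 to 0.27. Kctd16 had the narrowest interval, from -0.18 to 0.10 around -0.04 (edgeR adjusted p = 0.704). For Xkr4 the value was 0.05, with an interval from -0.20 to 0.31 (edgeR adjusted p = 0.782), and for Ptar1 it was -0.06, from -0.28 to 0.16 (edgeR adjusted p = 0.715).

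Taken at each stage, the largest values were those of Ago3 and Ptar1 after extinction, and they pointed in opposite directions. Ago3 had 10.3 ± 1.07 CPM with ABX and 8.64 ± 1.42 CPM without (SD, n = 4 each) after extinction. On the log2 scale this was a difference of 0.25 (SE 0.12, unadjusted p = 0.0526 and adjusted p = 0.379 by edgeR). Ptar1 had 3.26 ± 0.463 CPM with and 3.74 ± 0.715 CPM without ABX (SD, n = 4 each), which differed by -0.20 (SE 0.14, edgeR adjusted p = 0.506). Before extinction the 5 values lay between -0.05 (Kctd16) and 0.09 (Zbed6), each smaller than its standard error. In the same fit, 0 of the 88 list genes passed in any of the 3 ABX comparisons. At an unadjusted p under 0.05 there were 15 before extinction, 13 after it and 32 in the averaged comparison, while 16.0%, 13.3% and 30.6% of all genes were below that value. DESeq2 called 0, 0 and 12 of them, against 0.0892%, 1.17% and 13.3% of all genes. The list counts were thus close to those of the table. The 12 included Gabbr2, at -0.26 (SE 0.08, edgeR adjusted p = 0.0764), and Rabggtb, at 0.19 (SE 0.06, edgeR adjusted p = 0.0705).

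The transcripts of the 5 genes had some features in common and differed in others. Ago3 and Ptar1 had the longest coding transcripts of the set, with 15595 and 12574 bases, of which 12745 and 11271 bases were 3′ untranslated. Of 15068 coding genes with such data, 99.9% had a shorter 3′ untranslated region than Ago3 and 99.8% a shorter one than Ptar1. Zbed6, with 5007 bases in its 1 exon, had 779 bases of it. Xkr4 (3634 bases, 1543 of them 3′ untranslated) lay above the medians of 3178 and 1134 bases, and Kctd16 (2767 bases, 530 of them) lay below both. A long 3′ untranslated region was therefore not a feature of all 5 genes. Over all 15068 coding genes, longer transcripts had somewhat lower fold changes with extinction. Pearson's r with the log2 length of the 3′ untranslated region was -0.19 without ABX and -0.25 with ABX. With the log2 length of the transcript it was -0.21 and -0.23. The part of length in the values of the 5 genes was not tested.

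GC content was at or below the median of coding genes, 50.3%, in all 5. It was 39.5% in Ptar1, 41.8% in Ago3, 42.4% in Zbed6, 47.4% in Kctd16 and 50.1% in Xkr4, and 3.62%, 9.53%, 11.4%, 34.1% and 48.9% of coding genes lay below these values. Over all 15068 coding genes the fold change with extinction varied with GC content. Pearson's r between the 2 across genes, which are not independent replicates, was 0.43 without ABX and 0.60 with ABX. Genes with 40 to 42.5% GC had a median log2 fold change of -0.11 without and -0.17 with ABX, and genes with 50 to 52.5% GC had medians of 0.01 and 0.02.

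**Figure D4:**
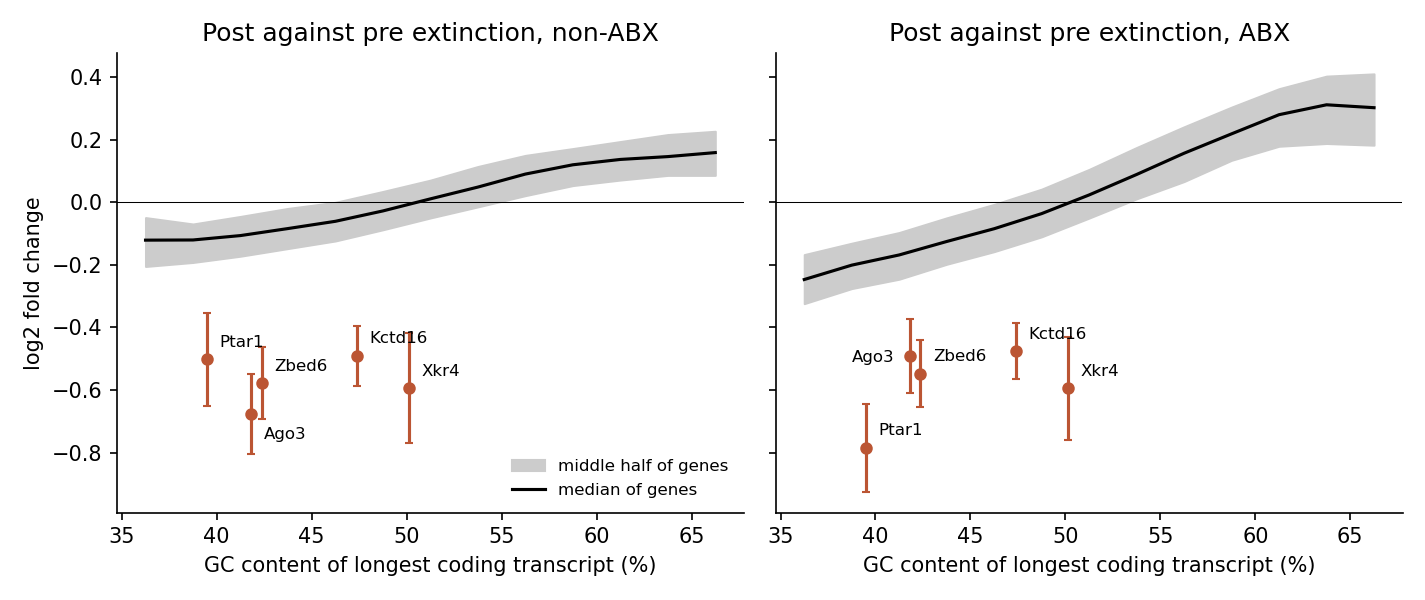
Log2 fold change, post over pre extinction (y axes), against the GC content of the longest coding transcript in percent (x axes), without ABX (left) and with ABX (right). The black line and grey band give the median and interquartile range of coding genes in bins of GC content, and the red points with bars give the 5 genes with their standard errors. Genes of low GC content had lower fold changes, and the 5 genes lie below the band at their own GC content in both panels.

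The plot against GC content also shows the distance of each gene from the band. When the fit included a spline on GC content for each library, the values became -0.57 without and -0.34 with ABX for Ago3, -0.39 and -0.59 for Ptar1, and -0.49 and -0.40 for Zbed6. For Kctd16 they were -0.44 and -0.42, and for Xkr4 -0.59 and -0.60. All 10 values stayed negative, which is a description, since the genes were chosen for negative values in these libraries. Xkr4, whose GC content was near the median, differed by at most 0.01 between the fits. The values of Ago3, Ptar1 and Zbed6, with low GC content, moved toward 0, and so did those of Kctd16, from -0.49 and -0.48. For the ABX comparisons the relation with GC content had the opposite sign, with r of -0.64 before extinction and -0.46 after it. With the spline, the averaged ABX value of Ago3 was 0.04 in place of 0.16 and that of Ptar1 was -0.18 in place of -0.06. Neither passed the edgeR test.

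Most pairs of the 5 genes also varied together between libraries of the same group, a feature that the choice by group means did not use. For each gene the deviation of a library from its group mean was taken in log2 CPM, and the deviations of the 15 libraries were correlated for each of the 10 pairs. In a permutation test that shuffled libraries within groups, with Benjamini-Hochberg adjustment over the 10 pairs, 7 pairs passed. The smallest r of these was 0.668. Over all pairs of the 16816 tested genes, 17.0% reached that size with either sign, and among the 11659 genes with a mean count at least that of Ptar1 27.3% of pairs did. Such covariation was therefore common in the table. Against all other tested genes, each of the 5 reached it with a smaller share, from 2.87% of genes for Ptar1 to 6.67% for Kctd16. The 5 genes were not picked independently of one another, so these shares and the permutation calls are given as a description.

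The strongest pair was Zbed6 with Ptar1, with r = 0.841 and rho = 0.768 (two-sided permutation p = 0.00236, adjusted p = 0.00590, n = 15). Ago3 with Zbed6 followed, with r = 0.830 and rho = 0.821 (permutation p = 0.00145, adjusted p = 0.00590). Without the 2 libraries farthest from the median, r was 0.714 and 0.722. Both pairs held their call in every fit that left out 1 library and with the GC spline, and so did Xkr4 with Zbed6 (r = 0.777, rho = 0.782, permutation p = 0.00205, adjusted p = 0.00590, 0.649 without 2 libraries). The same was true of Ago3 with Kctd16 (r = 0.763, rho = 0.711, permutation p = 9.5e-04, adjusted p = 0.00590, 0.765 without 2 libraries).

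The other pairs were less stable. Xkr4 with Ptar1 had r = 0.749 and rho = 0.825 (permutation p = 0.00468, adjusted p = 0.00936, 0.642 without 2 libraries), and with the GC spline r was 0.515 and the adjusted p 0.131. Xkr4 with Ago3 had r = 0.668 and rho = 0.718 (permutation p = 0.00865, adjusted p = 0.0144, 0.582 without 2 libraries). It lost its call with the GC spline (adjusted p = 0.101), without pre-extinction replicate 4 without ABX (0.0535) and without post-extinction replicate 4 without ABX (0.0622). Ago3 with Ptar1 had r = 0.680 and rho = 0.657 (permutation p = 0.0301, adjusted p = 0.0430, 0.550 without 2 libraries), and was past the threshold in only 3 of the 15 fits that left out 1 library, those without pre-extinction replicate 2, post-extinction replicate 2 or post-extinction replicate 4 with ABX.

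Kctd16 was the exception. Apart from its pair with Ago3 it passed with no other member: r was 0.482 with Xkr4 (rho = 0.521, permutation p = 0.136, adjusted p = 0.151), 0.473 with Zbed6 (rho = 0.529, permutation p = 0.0805, adjusted p = 0.101) and 0.301 with Ptar1 (rho = 0.293, permutation p = 0.312, adjusted p = 0.312). Without 2 libraries these were 0.429, 0.440 and 0.330. Without post-extinction replicate 4 with ABX, r for Kctd16 with Xkr4 was 0.815 (adjusted p = 0.0111) and r for Kctd16 with Zbed6 was 0.572 (adjusted p = 0.0436).

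**Figure D5:**
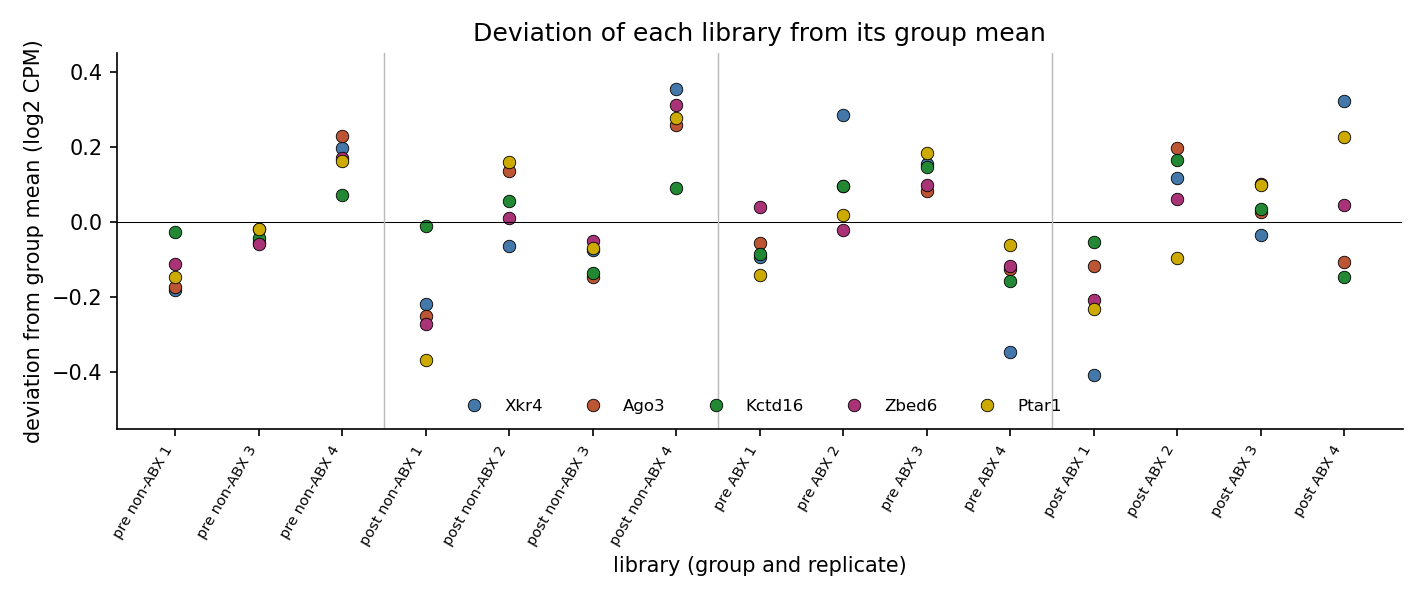
Deviation of each library from its group mean in log2 CPM (y axis) for Xkr4, Ago3, Kctd16, Zbed6 and Ptar1 (colours) in the 15 libraries (x axis, by group and replicate, with grey lines between groups). In post-extinction replicate 4 without ABX all 5 genes lie above 0 and in post-extinction replicate 1 of both arms all 5 lie below it, while in post-extinction replicate 4 with ABX Xkr4 (0.32) and Ptar1 (0.23) are high and Ago3 (-0.11) and Kctd16 (-0.15) low.

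In the plot of deviations, whole libraries were displaced for all 5 genes. Pre-extinction replicate 4 without ABX lay above its group mean for all 5, by 0.07 (Kctd16) to 0.23 (Ago3), and post-extinction replicate 4 without ABX did so by 0.09 (Kctd16) to 0.35 (Xkr4). Pre-extinction replicate 4 with ABX lay below for all 5, by values from -0.35 (Xkr4) to -0.06 (Ptar1). The replicate numbers carry no shared source in the labels.

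Other genes had a similar profile across the 15 libraries. Over 13304 genes, the 3 with the highest Pearson's r to the mean of the 5 were Kcnh7, a voltage-gated potassium channel (r = 0.987), Dgkh, a diacylglycerol kinase (r = 0.983), and Erbb4, a receptor for neuregulins (r = 0.975). The next 7 were Lnpep, Gabrb1, Bmpr2, Ptpn4, Birc6, Gabrg3 and Mib1, with r from 0.972 down to 0.954. The points share their libraries and their groups, so r contains the difference between the stages by which the 5 were chosen. Taken within groups, r for these 10 genes was 0.887 to 0.967.

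For single members, the closest gene was Lnpep for Xkr4 (r = 0.965), Dgkh for Ago3 (r = 0.961), Epha6 for Kctd16 (r = 0.953), Kcnh7 for Zbed6 (r = 0.970) and Erbb4 for Ptar1 (r = 0.956). The 10 genes closest to the mean had coding transcripts of 9767 to 15768 bases with 38.4 to 46.4% GC. Ago3 and Ptar1 had transcripts of that length, and Xkr4, Kctd16 and Zbed6 had shorter ones. The fold changes of the 10 genes ran from -0.95 to -0.25 without ABX and from -0.96 to -0.29 with ABX. Kcnh7 was the only 1 of the 10 past the edgeR test, with -0.96 and an adjusted p = 0.0253 with ABX, against 0.298 without ABX. Over all genes 0.0951% passed with ABX. The 10 genes were ranked by an r that contains the difference between the stages, so their fold changes and this call are a description.

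Of 60 marker genes tested on 11 lists, 0 passed the edgeR test between stages in either arm, against 0.0% and 0.0951% of all genes. By edgeR, 1 without ABX and 9 with ABX had an unadjusted p under 0.05, against 4.94% and 16.6% of all genes. DESeq2 called 0 in each arm, against 0.113% and 1.78% of all genes. Beside the lower values of the 5 genes with ABX, the summed level of the 5 pan-neuronal genes also lay lower after extinction, at 6111 to 6550 CPM against 6561 to 7366 CPM before. Without ABX it was 6120 to 6723 against 6488 to 6924 CPM, and the groups overlapped. Most of that sum came from Snap25 and Syt1, with means of 3276 and 2545 CPM. With ABX, Snap25, Syt1 and Nefl of this list had fold changes of -0.21 (SE 0.08), -0.16 (SE 0.07) and -0.07 (SE 0.09). The other genes of the list, Rbfox3 and Tubb3, had values above 0 with ABX, at 0.17 (SE 0.13) and 0.14 (SE 0.18). The summed excitatory neuron genes ran from 6188 to 7358 CPM before and from 7022 to 7843 CPM after extinction with ABX, which overlapped. The 5 choroid plexus genes ran from 3.58 to 16.8 CPM in the post-extinction libraries with ABX, against at most 4.79 CPM in the other groups. For the blood list, 6 of 7 genes were in the table and 1 of these was at 0 in every library. Its sum ran from 0.97 to 8.68 CPM in the post-extinction libraries with ABX, against at most 2.60 CPM elsewhere. Both ranges overlapped those of other groups. The part of these cell types in the values of the 5 genes was not tested. In the ABX comparison averaged over stages, 3 of 6 endothelial genes (Flt1, Kdr and Ly6c1) passed the edgeR test as lower with ABX. So did 3 of 6 mural genes (Acta2, Tagln and Myh11). Over all genes 0.624% passed there, and none of the 5 genes did.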

How the data were processed

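RNA of dissected mPFC was measured in 15 libraries prepared by SMARTer Ultra Low Input V4, a kit that keeps no strand. The authors deposited 1 table of raw counts per Entrez gene, with no normalization. CASAVA 1.8.2, STAR 2.3.0 and mm10 are named in the submitters' processing notes. The counting program and annotation are not stated in these sources. Symbols were matched for 25275 of 27179 identifiers (99.7% of counts) through RefSeq of the same build.

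Groups followed the labels for ABX and stage. In R 4.3.3, edgeR 4.0.16 kept 16816 genes (filterByExpr, minimum count 10), scaled them by TMM (factors 0.969 to 1.03) and fitted a quasi-likelihood model with 4 group means to all libraries. Tests were two-sided, with Benjamini-Hochberg adjustment over all genes and a threshold of 0.05. Standard errors are the fold change over the square root of F, and 95% intervals use the t distribution with the degrees of freedom of that fit. CPM are TMM-scaled, with a prior count of 2 on the log2 scale. The permutation tests of covariation drew 100000 shuffles within groups. Transcript features came from GENCODE M21, for 91.2% of tested genes. The common coefficient of variation between libraries was 0.112, and counts of 129 or more per library for each of the 5 genes kept counting error below it. All columns were used. The fit was tried on simulated data for the ABX comparison averaged over stages only, with genes simulated independently of one another.

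Named genes were the 5 members, the 16 relatives listed as paralogs or partners, any list gene past the edgeR test, and the genes of closest profile (3 for each member, 10 for their mean). Mov10, Igf2, Igf1r, Chml, Xk, Xkr5, Kctd12b, Zbed5, Snap25, Syt1, Nefl, Rbfox3 and Tubb3 were named after their values were seen. The members and the gene lists were chosen with earlier results of these data known. Alternatives were DESeq2 1.42.0, RLE scaling, no filter, a stricter filter (mean of 1 CPM), a replicate block, the compared groups alone, a GC spline with 5 degrees of freedom, and each library left out.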

Additional observations from a re-analysis of the deposited data

How the results depend on the processing

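The fold changes of the 5 genes with extinction were negative in all 14 alternatives without ABX and all 15 with ABX. Without ABX they ran from -0.73 to -0.48 for Xkr4, -0.77 to -0.54 for Ago3, -0.53 to -0.44 for Kctd16, -0.69 to -0.48 for Zbed6 and -0.60 to -0.39 for Ptar1. With ABX they ran from -0.71 to -0.48, -0.56 to -0.34, -0.53 to -0.42, -0.58 to -0.40 and -0.87 to -0.59 in the same order. Since the genes were chosen for lower values after extinction in these same libraries, these signs and ranges are a description. In the ABX comparisons 0 of the 5 genes passed under any alternative. Of the averaged ABX values, those of Xkr4 and Zbed6 changed sign in 1 of 21 alternatives each, and the smallest adjusted p was 0.0871, for Ago3.

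Counts of called genes over the whole table depended on the setting, and the cause was not tested. For ABX before extinction, 1 gene became 2 with no filter and 15 with DESeq2, and 1 to 28 with a library left out (28 without pre-extinction ABX replicate 4). For ABX after extinction, 3 became 102 with the GC spline, 32 with the compared groups alone and 182 with DESeq2, and 0 to 6 with a library left out, each of the 8 changing it. For ABX averaged over the stages, 105 became 705 with the GC spline and 1977 with DESeq2. It ran from 4 to 3057 with a library left out, moving by over 1.5 times for every library but post-extinction non-ABX replicate 4. For extinction without ABX, 0 became 2 with no filter, 2 with the GC spline and 19 with DESeq2, and 0 to 1 with a library left out. For extinction with ABX, 16 became 65 with the GC spline, 5 with the compared groups alone and 282 with DESeq2, and 3 to 237 with a library left out, each of the 8 moving it by over 1.5 times. The count of covarying pairs, 7, was 5 with the GC spline and 5 to 9 with a library left out.

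Libraries of 1 replicate number did not deviate together, with correlations from -0.491 to 0.374 over the pairs compared, so the numbers were not taken to pair them. With the replicate block, the averaged ABX comparison called 666 genes in place of 105, and the other counts were 1, 4, 0 and 21. No call on the 5 genes changed with the block.

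Ptar1 had the fewest counts, and Xkr4 the largest standard errors of the 5 genes. With 3 or 4 libraries a group, the 95% limits of the ABX values at a single stage were wider for some genes than for others. On the log2 scale they reached -0.50 (Ptar1) and 0.51 (Ago3) after extinction. For Kctd16 before extinction they ran from -0.25 to 0.15. A change within the limits of its gene was not excluded.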
